A study of Homo sapiens with 44 samples.

Results

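The interferon regulatory factors (IRFs) examined here were IRF1, IRF2, IRF3, IRF5, IRF7 and IRF9. They were chosen by gene symbol, not by a measured value, though earlier results of these data were known. They are 6 of the 25690 rows of an RNA-seq table of HEK293-GR cells and 6 of the 25689 genes of a table of A549 cells. In the A549 table, which lists 48118 transcripts, the members have 20, and the transcript with the most reads stands for each gene. The series measured how human cells with less IRF2BP2, a transcriptional cofactor first described as a partner of IRF2, answer to the synthetic glucocorticoid dexamethasone (dex) and to tumour necrosis factor (TNF).

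HEK293-GR is an isogenic human embryonic kidney line that carries an integrated, constantly expressed glucocorticoid receptor, and A549 is a human lung adenocarcinoma line. All RNA samples were transfected in steroid-depleted medium with 20 nM of a pool of small interfering RNAs for 72 h. In HEK293-GR cells the groups were siIRF2BP2 with 100 nM dex, siNON (a non-targeting pool) with dex, siIRF2BP2 with ethanol vehicle and siNON with vehicle, each for 6 h. The labels list 4 samples in each of these groups, of which 3 were analysed here, 12 libraries in all. In A549 cells the same pair of small interfering RNAs was combined with dex plus 10 ng/ml TNF, TNF, dex or vehicle for 6 h, and each of the 8 groups has 3 samples that the authors pooled into 1 column. IRF2BP2 was also mapped by ChIP-seq in HEK293-GR cells after 1 h of dex or vehicle. The labels do not say that replicates are separate cultures, so p-values measure only the spread between these samples.

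IRFs are transcription factors that share a DNA-binding domain and bind interferon response elements in the promoters of interferons and interferon-stimulated genes. IRF1 is an activator whose own gene is induced by inflammatory cytokines, and IRF2 binds the same elements and often opposes it. IRF3 is made constantly and is switched on by the kinases TBK1 and IKBKE after nucleic acid sensing, while IRF7 is itself interferon-inducible and amplifies the interferon response. IRF5 acts downstream of Toll-like receptors, mostly in immune cells, and IRF9 is the DNA-binding part of the complex that carries the type I interferon signal.

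The authors' tables place 4 members on the minus strand of hg19: IRF1 (chromosome 5, 131817301 to 131826465), IRF2 (chromosome 4, 185308876 to 185395726), IRF3 (chromosome 19, 50162826 to 50169132) and IRF7 (chromosome 11, 612555 to 615728). IRF5 (chromosome 7, 128577991 to 128590096) and IRF9 (chromosome 14, 24630422 to 24635774) are on the plus strand. The 733 bases at the start of IRF3 overlap BCL2L12 on the other strand, and since the sources used here do not give the strand setting of the counting, reads in that stretch cannot be told apart.

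The starts of IRF1 and IRF9 are shown because both genes rose in A549 cells under TNF and both windows hold a match to a STAT site. The sequences are the 150 bases before each RefSeq start (GRCh38.p14), written 5′ to 3′ on the gene's strand, chr5:132490774-132490923 on the minus strand for IRF1 and chr14:24161115-24161264 on the plus strand for IRF9. Capitals mark the match to the STAT gamma-activated site TTCNNNGAA in both and, in IRF1, the match to the NF-kB pattern (GGG, any 5 bases, CC) at position -50, which was found on both strands, while the matches at -70 and -66 in the same stretch are not marked.
IRF1: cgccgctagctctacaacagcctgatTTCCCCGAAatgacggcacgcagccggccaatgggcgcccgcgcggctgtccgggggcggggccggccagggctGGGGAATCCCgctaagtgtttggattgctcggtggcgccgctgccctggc
IRF9: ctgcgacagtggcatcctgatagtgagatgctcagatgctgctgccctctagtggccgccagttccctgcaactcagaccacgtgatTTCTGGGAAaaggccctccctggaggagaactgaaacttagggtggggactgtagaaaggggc
The search covered both strands of 300-base windows, 250 bases before the start to 50 after it, and windows were found for IRF1 (1), IRF5 (4) and IRF9 (1) among the 35116 in the table. The STAT pattern was found in 7.66% of all windows, in IRF1 at position -124 from the start (TTCCCCGAA) and in IRF9 at position -63 (TTCTGGGAA), and in none of the 4 IRF5 windows. The NF-kB pattern was found in 58.7% of all windows and had 8 matches in IRF1, some overlapping, among them those at -230 and -50, each found on both strands, and 3 in IRF9. The interferon response element core (GAAA, any 2 bases, GAAA; 3.57% of all windows) and the glucocorticoid response element (G, any base, ACA, any 3 bases, TGT, any base, C; 0.390%) had no match in the member windows.

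The HEK293-GR libraries held 18245300 to 28545900 tags and the pooled A549 columns 35804000 to 56865100. The siRNA target, IRF2BP2, averaged 10.4 ± 0.75 FPKM (fragments per kilobase of exon, scaled to the tags of the library) in HEK293-GR cells with siIRF2BP2 and dex, against 20.0 ± 0.61 FPKM with siNON and dex, and 12.7 ± 0.96 FPKM with siIRF2BP2 and vehicle, against 22.9 ± 2.4 FPKM with siNON and vehicle (SD, n = 3 each). The A549 knockdown was shallower: the authors' deposited table gives IRF2BP2 log2 fold changes of -0.62 under dex plus TNF, -0.40 under TNF, -0.66 under dex and -0.31 under vehicle, all with an FDR under 0.05. The 5 A549 markers, such as AKR1B10, were high in A549 columns, and the 4 HEK293 markers, such as NEFL, in HEK293-GR libraries. The 11 markers of blood, endothelial and fibroblast cells summed to 12.02 to 19.3 RPM per exon kilobase in A549 columns with siIRF2BP2 and 7.11 to 9.59 with siNON, mostly from COL1A1, while CD3E was listed at 0 in all 8 columns. In HEK293-GR libraries their sum was 8.49 to 11.2 FPKM with siIRF2BP2 and 9.43 to 14.6 FPKM with siNON. Whether they have a part in any IRF difference was not tested, and in bulk RNA fewer cells of a type and less RNA per cell cannot be told apart.

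In HEK293-GR cells all 6 genes were detected in each of the 12 libraries, in a steady order. IRF3, the constantly made sensor target, was the highest, with 20.2 to 27.5 FPKM and 758 to 1082 reads a library. IRF5 followed with 6.58 to 8.28 FPKM, IRF2 with 4.26 to 6.44 FPKM, IRF9 with 2.40 to 3.98 FPKM, IRF1 with 2.44 to 3.39 FPKM and IRF7, the lowest, with 0.951 to 2.74 FPKM and 41 to 118 reads. Each gene was above the next in all 12 libraries, except that IRF9 was above IRF1 in 10 of 12.

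**Figure D1:**
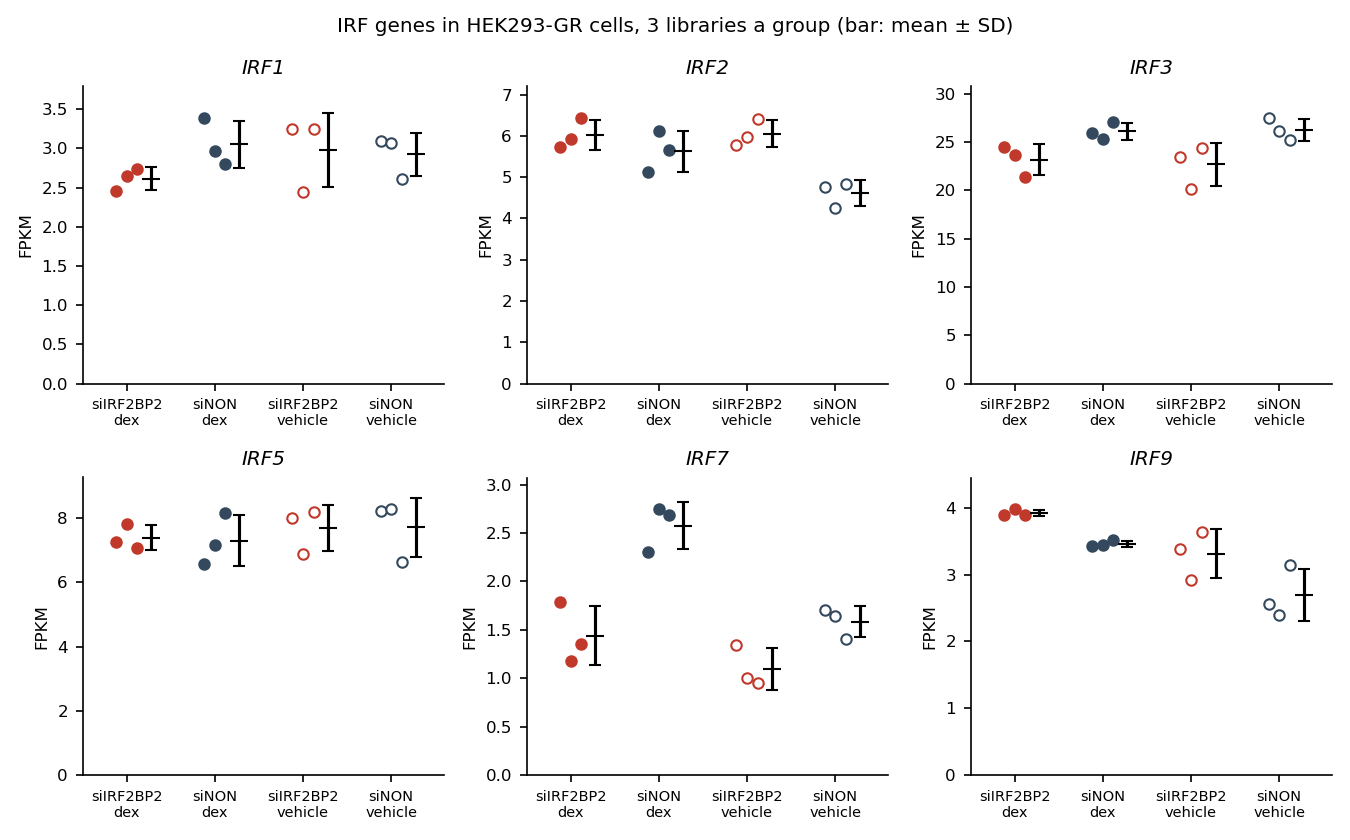
Levels of the 6 IRF genes in HEK293-GR cells in FPKM, by siRNA and treatment: points are the 3 libraries of a group (filled with dex, open with vehicle, red for siIRF2BP2, dark for siNON), and black bars are mean ± SD. The IRF7 points with siNON and dex, 2.30 to 2.74 FPKM, lie above all others of that gene, and the IRF2 points with siNON and vehicle, 4.26 to 4.84 FPKM, below all others of that gene.

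IRF7, the interferon-inducible amplifier, changed most in HEK293-GR cells. It had 1.78, 1.18 and 1.36 FPKM with siIRF2BP2 and dex, against 2.30, 2.74 and 2.69 FPKM with siNON and dex. With vehicle it had 1.35, 0.998 and 0.951 FPKM with siIRF2BP2, against 1.71, 1.64 and 1.41 FPKM with siNON. At each treatment the siIRF2BP2 libraries were all below the siNON libraries. Under dex the knockdown fall passed the test, with a log2 fold change of -0.81 ± 0.17 (SE, adjusted p = 0.00185, limma on log2 of FPKM plus 0.1 with Benjamini-Hochberg adjustment over 15593 genes). Under vehicle the value was -0.50 ± 0.17 and narrowly missed the threshold of 0.05 (limma adjusted p = 0.0515). It passed in 5 of 20 alternatives, 3 of which left out 1 library: siNON vehicle replicate 3, siIRF2BP2 vehicle replicate 1 or siIRF2BP2 dex replicate 1.

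Dex raised IRF7 in cells with the control siRNA, by 0.67 ± 0.17 on the log2 scale (limma adjusted p = 0.00913), with all 3 dex libraries above all 3 vehicle libraries. Between these groups 39.1% of all tested genes had no overlap in 1 direction or the other. With siIRF2BP2 the dex value was 0.36 ± 0.17 (limma adjusted p = 0.237) and the libraries overlapped. The 2 dex responses were not shown to differ: the difference was -0.31 ± 0.23, with a 95% interval of -0.81 to 0.19 (limma adjusted p = 0.794).

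IRF2, the factor after which IRF2BP2 is named, was the member that rose with the knockdown under vehicle. It had 5.78, 5.97 and 6.41 FPKM with siIRF2BP2 and vehicle, against 4.76, 4.26 and 4.84 FPKM with siNON and vehicle, with no overlap (log2 fold change 0.38 ± 0.09, limma adjusted p = 0.013). The call was lost without siNON vehicle replicate 2, where the log2 fold change was 0.33, and in a fit of the 2 groups alone. Under dex it had 5.73, 5.93 and 6.44 FPKM with siIRF2BP2, against 5.12, 6.11 and 5.66 FPKM with siNON, and the groups overlapped (0.10 ± 0.09, limma adjusted p = 0.408).
Dex raised IRF2 with siNON by 0.28 ± 0.09 on the log2 scale (limma adjusted p = 0.0459), and with siIRF2BP2 the value was -0.01 ± 0.09. The difference of the 2 dex responses was -0.28 ± 0.13, with a 95% interval of -0.56 to -0.0026 (unadjusted p = 0.0481 and adjusted p = 0.794 by limma). The dex rise of IRF2 was called in 8 of 20 alternatives, and was lost without siNON vehicle replicate 2, siNON dex replicate 2 or 3, siIRF2BP2 vehicle replicate 1, or any siIRF2BP2 dex replicate.

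IRF9, the DNA-binding subunit of the interferon-activated complex, had 3.90, 3.98 and 3.89 FPKM with siIRF2BP2 and dex, against 3.44, 3.44 and 3.52 FPKM with siNON and dex. With vehicle it had 3.39, 2.92 and 3.64 FPKM with siIRF2BP2, against 2.57, 2.40 and 3.14 FPKM with siNON. The dex libraries did not overlap between the siRNAs and the vehicle libraries did. Neither knockdown value passed (0.17 ± 0.12 with limma adjusted p = 0.246 under dex, 0.29 ± 0.12 with limma adjusted p = 0.103 under vehicle). The vehicle value passed without siNON vehicle replicate 3, where it was 0.40. Dex raised IRF9 with siNON by 0.36 ± 0.12 (limma adjusted p = 0.0399), and with siIRF2BP2 the value was 0.24 ± 0.12 (limma adjusted p = 0.263). The siNON call held in 8 of 20 alternatives, and was lost without siNON vehicle replicate 1 or 2 or any 1 of the 6 dex libraries.

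IRF3 was lower in all siIRF2BP2 libraries than in any siNON library of the same treatment, by a small margin that did not pass. It had 24.5, 23.7 and 21.4 FPKM with siIRF2BP2 and dex, against 25.9, 25.4 and 27.0 FPKM with siNON and dex (-0.17 ± 0.08, limma adjusted p = 0.0929). With vehicle it had 23.5, 20.2 and 24.4 FPKM with siIRF2BP2, against 27.5, 26.1 and 25.2 FPKM with siNON (-0.21 ± 0.08, limma adjusted p = 0.0778). For the knockdown under dex, the authors' deposited table gives IRF3 an FDR of 0.0121. IRF1 and IRF5 showed no call in any HEK293-GR comparison or alternative. IRF1 averaged 2.61 ± 0.15 FPKM with siIRF2BP2 and dex, 3.05 ± 0.30 with siNON and dex, 2.98 ± 0.47 with siIRF2BP2 and vehicle and 2.92 ± 0.27 with siNON and vehicle (SD, n = 3 each). Its knockdown value under dex was -0.21, with a 95% interval of -0.49 to 0.06, and that under vehicle 0.02, with an interval of -0.26 to 0.29. IRF5 averaged between 7.30 and 7.72 FPKM in the 4 groups, and its knockdown values were 0.02 under dex, with an interval of -0.20 to 0.25, and 0.00 under vehicle, with an interval of -0.23 to 0.22.

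In all, the knockdown under dex moved 1 of 6 members (IRF7, lower) where limma called 39.7% of all tested genes, and under vehicle 1 of 6 (IRF2, higher) where it called 15.5%. The vehicle count over all genes, 2414, was 1170 without siIRF2BP2 vehicle replicate 2, and 1178, 1348 and 4827 without siNON vehicle replicate 1, 2 and 3. Members whose libraries did not overlap between the siRNAs numbered 4 of 6 under dex, beside 58.0% of all tested genes, and 3 of 6 under vehicle, beside 26.7%. Dex with siNON moved 3 of 6 (IRF7, IRF2 and IRF9, all higher) beside 20.7% of all tested genes, a count of 3235 that was 1978 without siNON dex replicate 3. With siIRF2BP2 limma called 0 of 6 beside 10.5%, with 1 (IRF7) at an unadjusted p under 0.05 and 0 by the FDR of the authors' deposited table. The difference of the dex responses had 0 of 6 called by limma, beside 0.0128% of all tested genes, and 1 (IRF2) at an unadjusted p under 0.05. The FDR of the authors' deposited table calls 2 of 6 for the knockdown under dex (IRF7 and IRF3, beside 46.5% of the same genes), 0 of 6 under vehicle (5.41%), 1 of 6 for dex with siNON (IRF7, 16.4%) and 0 of 6 with siIRF2BP2 (10.5%). Under median-of-ratios scaling the knockdown calls over all genes under vehicle split into 1139 higher and 1601 lower, against 1247 higher and 1167 lower here. The median member log2 fold change was 0.17 for dex with siNON, beside 0.02 over all genes, and lay between -0.08 and 0.01 in the other 3 comparisons of 2 groups.

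**Figure D2:**
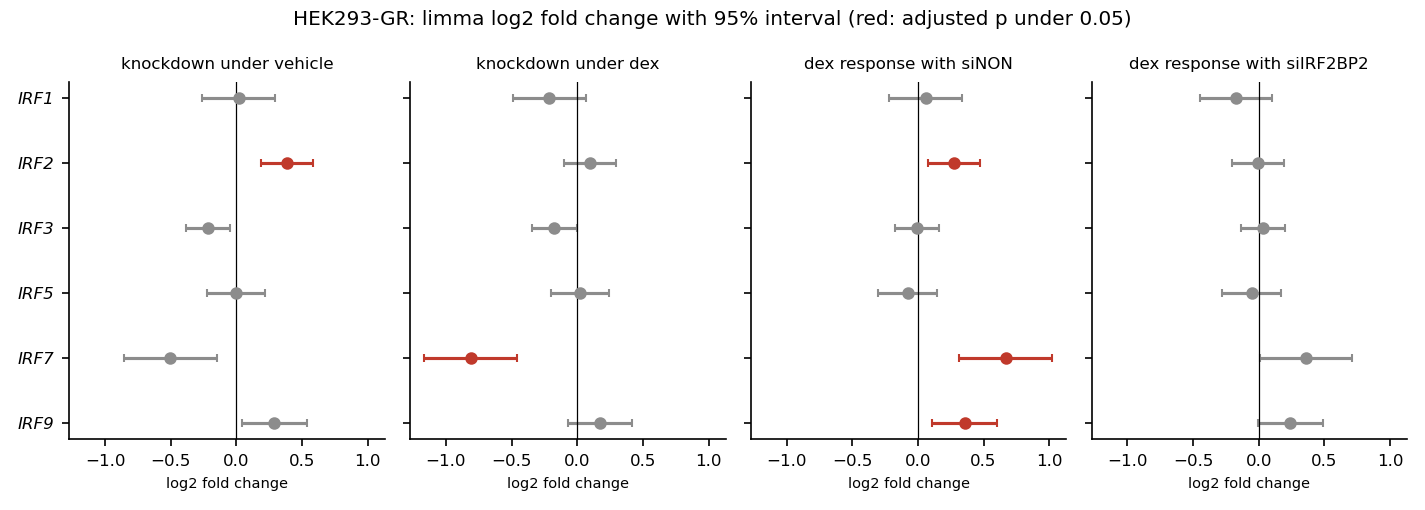
Log2 fold changes of the 6 IRF genes in HEK293-GR cells from limma, with 95% intervals, for the knockdown (siIRF2BP2 over siNON) and for dex over vehicle: red marks an adjusted p under 0.05. IRF7 is red and low for the knockdown under dex (-0.81) and red and high for dex with siNON (0.67), and no gene is red for dex with siIRF2BP2.

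In A549 cells the order of the members differed between the treatments. Levels there are given as RPM (reads scaled to the tags of the column) per exon kilobase, since the authors' FPKM in that table divide by the genomic span, and they come from pooled columns with no error. Whether reads in introns were counted is not given in the sources used here. If they were, levels per exon kilobase overstate genes with long introns, most of all IRF2, whose span is 86850 bases and exon length 2275. The order between genes rests on that point. A comparison of 1 gene between columns does not depend on the length, but would then mix intron and exon reads. With siNON and vehicle, IRF3 stood at 43.6, IRF9 at 10.9, IRF2 at 8.36, IRF1 at 5.13, IRF5 at 4.97 and IRF7 at 3.52 RPM per exon kilobase. With siNON and TNF, IRF1 was first at 51.5, ahead of IRF3 at 37.0, IRF2 at 18.4, IRF9 at 15.5, IRF7 at 6.12 and IRF5 at 5.34. As the 2 tables were normalised separately, no level is compared between the cell lines.

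**Figure D3:**
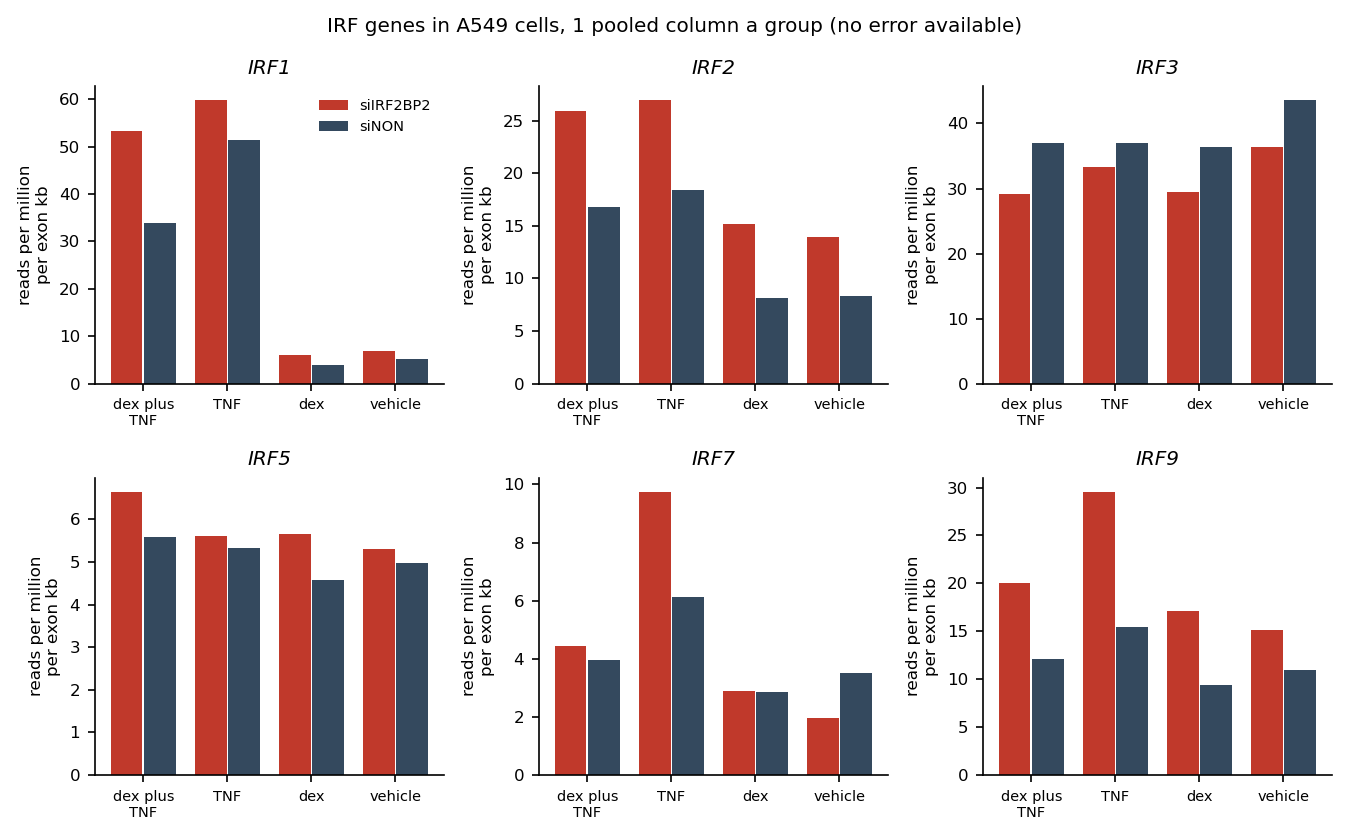
Levels of the 6 IRF genes in A549 cells, in RPM per exon kilobase, by treatment: red bars are siIRF2BP2 and dark bars siNON, each from 1 pooled column with no error. IRF1 stands at 33.9 to 59.8 in the 4 columns with TNF and at 3.88 to 6.80 in the 4 without it.

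IRF1, whose promoter is printed above, had the largest TNF response of the 6. It stood at 53.2 with siIRF2BP2, dex and TNF, 59.8 with siIRF2BP2 and TNF, 5.96 with siIRF2BP2 and dex and 6.80 with siIRF2BP2 and vehicle. The siNON columns held 33.9 with dex and TNF, 51.5 with TNF, 3.88 with dex and 5.13 with vehicle (all in RPM per exon kilobase). Every column with TNF was above every column without it. The authors' deposited table gives log2 fold changes for TNF over vehicle of 3.26 with siIRF2BP2 (FDR listed as 0) and 3.42 with siNON (FDR 1.17e-242).
Adding dex to TNF lowered IRF1 with siNON by the authors' deposited table (-0.59, FDR 7.57e-12), and the value with siIRF2BP2 was -0.13 (FDR 0.307). Whether these 2 values differ was not tested. For the knockdown, the authors' deposited table gives IRF1 0.60 under dex plus TNF (FDR 3.24e-11), 0.13 under TNF (FDR 0.196), 0.55 under dex (FDR 0.000262) and 0.29 under vehicle (FDR 0.0269). The IRF1 call was past the threshold in the 2 knockdown comparisons with dex and in that with vehicle.

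IRF2, which opposes IRF1 at shared sites, was higher with siIRF2BP2 at every treatment. It stood at 25.9 with siIRF2BP2 against 16.8 with siNON under dex plus TNF, at 27.0 against 18.4 under TNF, at 15.2 against 8.13 under dex and at 13.97 with siIRF2BP2 against 8.36 with siNON under vehicle, in RPM per exon kilobase. The authors' deposited table calls all 4, with log2 fold changes of 0.58, 0.47, 0.81 and 0.62 in that order of treatments (FDR 1.56e-08, 4.18e-06, 1.81e-09 and 8.35e-08). TNF over vehicle raised IRF2 by 1.08 with siIRF2BP2 and 1.24 with siNON in the authors' deposited table (FDR 1.28e-39 and 1.85e-25). Under vehicle the knockdown value had the same sign in HEK293-GR cells (0.38 by limma) and A549 cells (0.62 in the authors' deposited table). For HEK293-GR cells under vehicle the authors' deposited table gives IRF2 0.38 with an FDR of 0.148, which is no call. Under dex the HEK293-GR value was 0.10 by limma, also without a call, against the 0.81 of A549 cells.

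The IRF1 over IRF2 ratio was higher in A549 columns with TNF than in those without it. Its size in A549 cells, above or below 1, depends on the same doubt about introns. Its change between columns does not depend on the lengths, but would also mix intron and exon reads if both were counted. The IRF1 level over the IRF2 level, each per exon kilobase, was 2.06 with siIRF2BP2 and 2.02 with siNON under dex plus TNF, and 2.22 with siIRF2BP2 and 2.80 with siNON under TNF. Without TNF it was 0.392 with siIRF2BP2 and 0.478 with siNON under dex, and 0.487 with siIRF2BP2 and 0.613 with siNON under vehicle. In HEK293-GR libraries it was 0.427, 0.446 and 0.426 with siIRF2BP2 and dex, against 0.662, 0.485 and 0.495 with siNON and dex, with no overlap. Between these groups 58.0% of all tested genes also had no overlap, and neither IRF1 nor IRF2 was called (limma adjusted p = 0.205 and 0.408). Under vehicle the ratio was 0.562, 0.409 and 0.507 with siIRF2BP2, against 0.650, 0.720 and 0.539 with siNON, and the groups overlapped. The ratio was not tested.

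**Figure D4:**
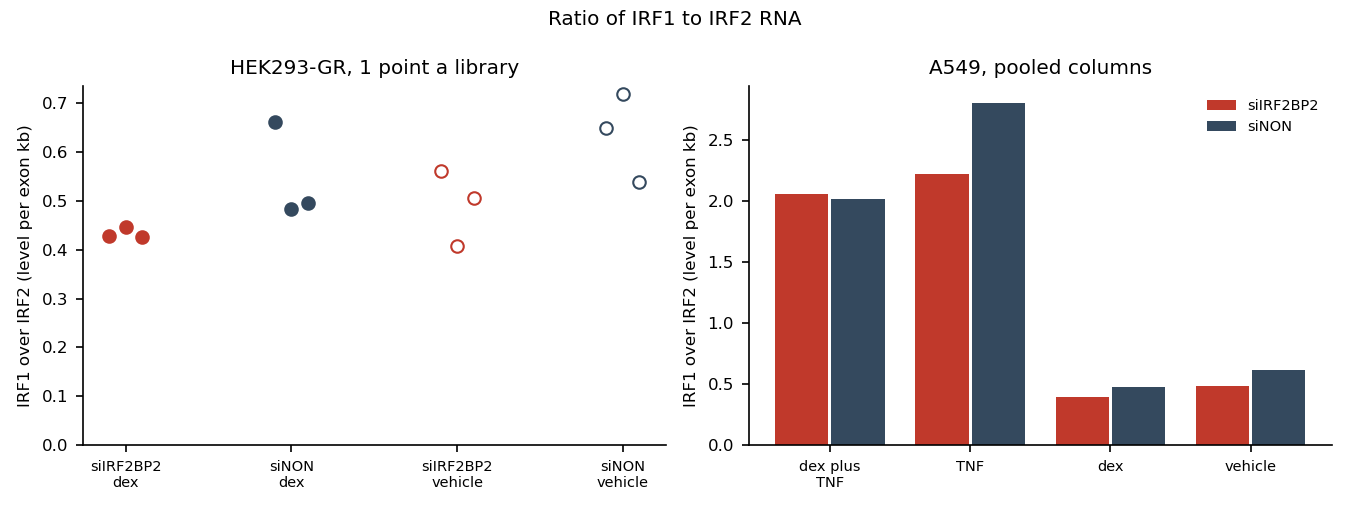
Ratio of the IRF1 to the IRF2 level (each per exon kilobase) by siRNA and treatment: points are single HEK293-GR libraries (left) and bars are pooled A549 columns with no error (right), red for siIRF2BP2 and dark for siNON. The A549 ratio is 2.02 to 2.80 with TNF and 0.392 to 0.613 without it.

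IRF7 was called in opposite directions for the knockdown under vehicle and under TNF in A549 cells. It stood at 1.95 with siIRF2BP2 against 3.52 with siNON under vehicle, and at 9.75 with siIRF2BP2 against 6.12 with siNON under TNF, in RPM per exon kilobase. The pooled reads were 149 with siIRF2BP2 against 408 with siNON under vehicle, and 942 against 540 under TNF. Under dex the levels were 2.89 and 2.85 for siIRF2BP2 and siNON, and under dex plus TNF they were 4.44 and 3.95 for siIRF2BP2 and siNON. The authors' deposited table gives knockdown log2 fold changes of -0.94 under vehicle (FDR 2.32e-05), 0.59 under TNF (FDR 7.95e-06), -0.09 under dex (FDR 1) and 0.07 under dex plus TNF (FDR 1). TNF over vehicle raised IRF7 by 2.45 with siIRF2BP2 and 0.93 with siNON by the authors' deposited table (FDR 4.42e-67 and 4.76e-07). Dex added to TNF lowered it (-1.14 with siIRF2BP2, FDR 2.31e-17, and -0.62 with siNON, FDR 0.000127 in the authors' deposited table). Without TNF, dex raised it with siIRF2BP2 (0.65, FDR 0.0071), and the siNON value was -0.21 (FDR 0.948, authors' deposited table). Differences between these pairs were not tested.

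IRF9 was higher with siIRF2BP2 at all 4 treatments: 20.1 with siIRF2BP2 against 12.1 with siNON under dex plus TNF, 29.6 against 15.5 under TNF, 17.2 against 9.35 under dex and 15.1 with siIRF2BP2 against 10.9 with siNON under vehicle, in RPM per exon kilobase. The knockdown log2 fold changes in the authors' deposited table were 0.67, 0.87, 0.81 and 0.38 in that order (FDR 4.38e-11, 2.42e-13, 1.28e-06 and 0.0136). TNF over vehicle raised IRF9 by 1.11 with siIRF2BP2 and 0.62 with siNON (authors' deposited table, FDR 4.42e-30 and 0.000159). Dex added to TNF lowered it, with log2 fold changes of -0.55 with siIRF2BP2 and -0.35 with siNON (authors' deposited table, FDR 5.68e-08 and 0.028).

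IRF3 stood lower with siIRF2BP2 in each pair of A549 columns, at 29.2 against 37.0 with siNON under dex plus TNF and at 36.4 against 43.6 with siNON under vehicle, in RPM per exon kilobase. The authors' deposited table calls 3 of the 4 falls, -0.38 under dex plus TNF (FDR 0.000927), -0.23 under TNF (FDR 0.0302) and -0.33 under vehicle (FDR 0.0099). Under dex the IRF3 value there was -0.33 with an FDR of 0.0541. Neither TNF comparison with vehicle moved IRF3 past the threshold. IRF5 varied least, between 4.58 and 6.65 RPM per exon kilobase, and no knockdown call was made on it. With siIRF2BP2 it rose under dex plus TNF over vehicle (0.44, FDR 0.000234) and under dex plus TNF over dex (0.33, FDR 0.0144), by the authors' deposited table.

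By the FDR of the authors' deposited table, the knockdown raised 3 members and lowered 1 under dex plus TNF, raised 3 and lowered 1 under TNF, raised 3 and lowered none under dex and raised 3 and lowered 2 under vehicle. Among the 13594 genes with an average of at least 1 RPM over the 8 columns, the authors' deposited table calls 42.4%, 45.7%, 37.2% and 40.3% in the same 4 comparisons, either direction. TNF over vehicle raised 4 of 6 members with siIRF2BP2, beside 43.0% of genes called in either direction, and 4 of 6 with siNON, beside 22.6% (authors' deposited table). Dex plus TNF over vehicle raised 5 of 6 with siIRF2BP2, beside 47.6% called, and 2 of 6 with siNON, beside 24.2% (authors' deposited table). Dex added to TNF lowered 2 of 6 with siIRF2BP2 (beside 28.4% called) and 3 of 6 with siNON (beside 19.3%), again by the authors' deposited table. TNF added to dex raised 5 of 6 with siIRF2BP2 (35.3% called in either direction) and 4 of 6 with siNON in the authors' deposited table. For siNON the share is of rises alone (7.22% called higher), so these 2 shares cannot be compared. For dex alone, the authors' deposited table calls 2 of 6 with siIRF2BP2 (IRF7 higher and IRF3 lower, beside 28.1%). With siNON it calls 0 of 6, beside 6.96% of genes called higher and 5.05% lower, with 1 member (IRF1) at an unadjusted p under 0.05. The comparisons share columns, so they are not independent. The pooled columns differ in scale from the authors' fold changes: over all genes with at least 1 RPM the median gap was -0.12 for the knockdown under vehicle, -0.13 under dex, 0.12 for TNF and 0.13 for dex plus TNF with siIRF2BP2, and 0.10 for TNF added to dex with siIRF2BP2. No called member changed sign between the scales. Of those without a call, 4 values did, given as the log2 ratio of pooled FPKM plus 0.1 against the authors' deposited table: IRF7 for the knockdown under dex (0.02 against -0.09) and IRF5 under TNF (0.07 against -0.02), IRF2 for dex with siNON (-0.03 against 0.03) and IRF3 for TNF added to dex with siIRF2BP2 (-0.02 against 0.07).

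**Figure D5:**
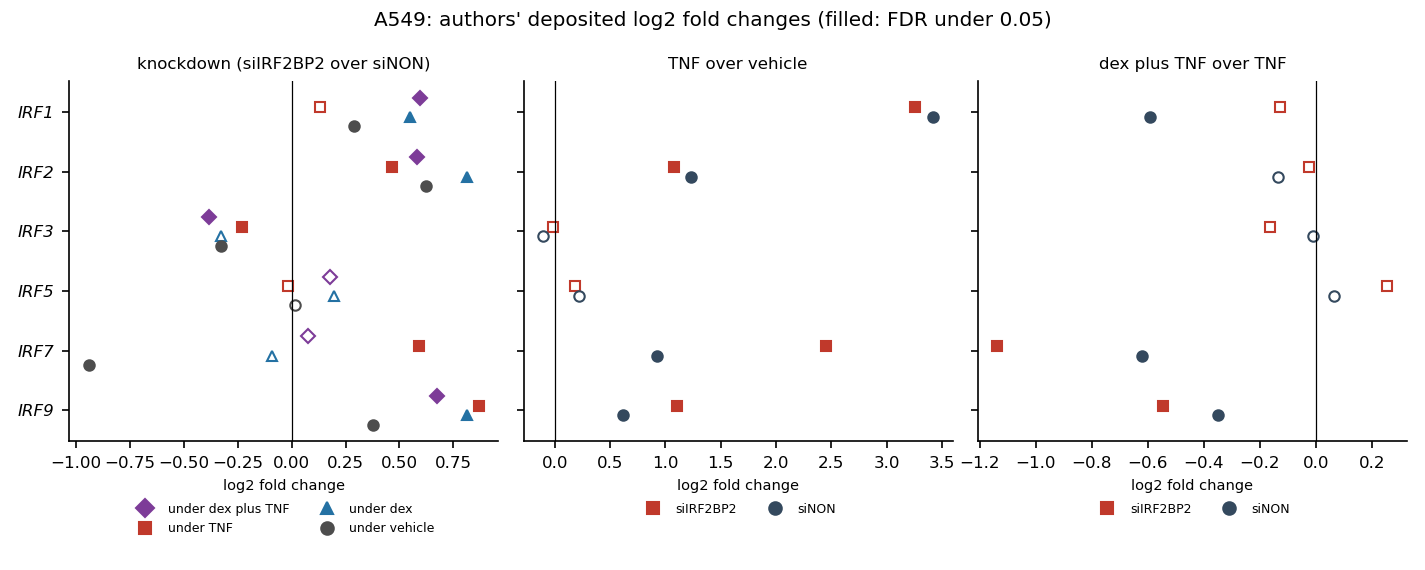
Log2 fold changes of the 6 IRF genes in A549 cells from the authors' deposited table, for the knockdown at each treatment (left), TNF over vehicle (middle) and dex plus TNF over TNF (right): filled marks have an FDR under 0.05 and open marks do not, and the table gives no error. IRF7 lies at -0.94 under vehicle and 0.59 under TNF on the left, and IRF1 beyond 3 in the middle for both siRNAs.

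Genes whose levels followed a member most closely were taken as the 3 highest Pearson correlations of log2 levels, across the 12 HEK293-GR libraries or the 8 pooled A549 columns, which share libraries, siRNA and treatments. Only genes with a mean FPKM of at least 1 were compared with the members. In A549 cells that FPKM divides by the genomic span, so genes with long spans can be left out. IRF2 itself, at 0.213 to 0.706 FPKM there, is below that limit. In A549 columns IRF1 went with ICAM1, an adhesion molecule (r = 0.994), EFNA1 (r = 0.992) and IL32 (r = 0.992). IRF2 went with IL4R, a cytokine receptor (r = 0.987), ANXA7 (r = 0.987) and SPPL2A (r = 0.986). IRF9 went with GATSL3 (r = 0.988), the interferon-induced IFI35 (r = 0.983) and RACGAP1 (r = 0.982), and IRF7 with AMMECR1L (r = 0.959), LAP3 (r = 0.947) and DTX2 (r = 0.935). IRF3 went with SLC39A7 (r = 0.981), PDXP (r = 0.979) and GPR146 (r = 0.972), and IRF5 with ANXA2P3 (r = 0.976), ASB6 (r = 0.944) and TLDC1 (r = 0.938). Across the HEK293-GR libraries IRF7 went with NRG2 (r = 0.957), IGFLR1 (r = 0.954) and FAM19A5 (r = 0.949), IRF9 with USP31 (r = 0.958), FAM73B (r = 0.952) and BVES (r = 0.951), and IRF1 with GAR1 (r = 0.875), ASH1L-AS1 (r = 0.856) and IGF2R (r = 0.854). With 6844 to 13120 genes compared and so few points, such values say only which of the compared genes were most alike.

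Elsewhere in the family, IRF8, known for its role in myeloid cells, rose with dex in HEK293-GR cells by 0.62 with siIRF2BP2 and 0.59 with siNON on the log2 scale (limma adjusted p = 0.000776 and 0.000923). IRF4 had no call in HEK293-GR cells, and both genes averaged under 1 RPM over the A549 columns.

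Of 6 listed genes, IRF2BP2 itself with relatives and partners, IRF2BPL, a paralogue, was higher with siIRF2BP2 at all 4 A549 treatments in the authors' deposited table (1.04 under dex plus TNF, 0.77 under TNF, 1.08 under dex and 0.32 under vehicle). VGLL4, a cofactor of TEAD factors, was also higher at all 4 there (0.67, 0.84, 0.59 and 0.65 in the same order, authors' deposited table). Each treatment had 2 of the 6 called higher and 1 lower, beside 42.4%, 45.7%, 37.2% and 40.3% of all genes called in that order. The 1 called lower was each time IRF2BP2, the siRNA target, so that call says nothing about its relatives and partners. In HEK293-GR cells KAT2B, an acetyltransferase, rose with the knockdown under dex (0.56, limma adjusted p = 0.000928) and under vehicle (0.31, limma adjusted p = 0.0493). The paralogue IRF2BP1 fell under dex (-0.48, limma adjusted p = 0.00631). For the knockdown in HEK293-GR cells limma called 39.7% of all tested genes under dex and 15.5% under vehicle. Dex lowered IRF2BPL with siIRF2BP2 (-0.83, limma adjusted p = 0.000272) and with siNON (-0.69, limma adjusted p = 0.00112).

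Upstream of IRF3 and IRF7, 13 sensors, adaptors and kinases were listed. TNF over vehicle raised 10 of 13 with siIRF2BP2 (43.0% of all genes called) and 8 of 13 with siNON (22.6% called), and lowered none, by the authors' deposited table. The largest rises there were those of the RNA sensor IFIH1 (3.18 with siIRF2BP2 and 3.43 with siNON), the IRF3 kinase IKBKE (2.87 and 2.46 for siIRF2BP2 and siNON) and the sensor DDX58 (2.21 and 1.93 for siIRF2BP2 and siNON), in the authors' deposited table. For the knockdown under TNF the authors' deposited table calls 6 higher and 1 lower, beside 45.7% of all genes, among them TLR3 (1.23), IKBKE (0.94) and IFIH1 (0.88) higher and the adaptor TICAM1 (-0.77) lower. The list's median under TNF was 0.34, beside 0.02 over all genes. Under dex plus TNF the authors' deposited table calls 7 higher and 1 lower, beside 42.4% of all genes. It calls 4 higher and 2 lower under dex (beside 37.2%) and 5 higher and 1 lower under vehicle (beside 40.3%). In HEK293-GR cells 12 were tested, and the knockdown under dex raised 3 and lowered 2, beside 39.7% of all tested genes, among them IFIH1 (0.53, limma adjusted p = 0.00703), TLR3 (0.69, limma adjusted p = 0.0174) and TBK1 (0.38, limma adjusted p = 0.0208) higher and MAVS (-0.28, limma adjusted p = 0.02) lower. For the same knockdown under dex in A549 cells, TBK1 had the other sign (-0.54, FDR 0.000191, authors' deposited table). Of the interferons themselves, 8 listed genes are in the tables, none passed the low-read filter in HEK293-GR cells, and 1, IFNE, averaged at least 1 RPM over the A549 columns. Dex lowered IFNE with siIRF2BP2 in the authors' deposited table (-1.05, FDR 0.0124, beside 28.1% of all genes called). With siNON the IFNE value was -0.82 and was not called, and whether the 2 values differ was not tested.

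Downstream of the interferons, 14 receptors, JAK and STAT genes and their inhibitors were measured in both lines. In A549 cells TNF over vehicle raised 13 of 14 with siIRF2BP2 (43.0% of all genes called) and 11 of 14 with siNON (22.6% called) by the authors' deposited table, led by the interferon receptor IFNAR2 (2.20 with siIRF2BP2 and 2.08 with siNON). The knockdown raised 6 and lowered none under dex plus TNF, raised 7 and lowered 1 under TNF, raised 8 and lowered none under dex, and raised 4 and lowered 3 under vehicle (authors' deposited table). The shares of all genes called there were 42.4% under dex plus TNF, 45.7% under TNF, 37.2% under dex and 40.3% under vehicle in the authors' deposited table. Among these were JAK2 (0.83) under dex plus TNF, STAT2 (0.59), which binds IRF9, under TNF, SOCS3 (1.05) under dex, and the inhibitor SOCS1 (-1.66) under vehicle, all from the authors' deposited table. In HEK293-GR cells dex raised 4 of 14 with siIRF2BP2, beside 10.5% of all tested genes called, and 5 of 14 with siNON, beside 20.7%. JAK1, the receptor-bound kinase, rose to 36.8 FPKM with siIRF2BP2 and dex, against 20.1 with siIRF2BP2 and vehicle (log2 fold change 0.87, limma adjusted p = 2.36e-07). With siNON it stood at 40.2 FPKM with dex, against 20.3 with vehicle (0.98, limma adjusted p = 4.15e-08). STAT2 fell with the knockdown in HEK293-GR cells, under dex (-0.44, limma adjusted p = 0.00121) and under vehicle (-0.30, limma adjusted p = 0.0249).

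The 39 listed IRF target genes hold interferon-stimulated genes, antigen-processing genes and chemokines, of which 34 averaged at least 1 RPM over the A549 columns. The authors' deposited table has 30 of 34 higher and 1 lower with siIRF2BP2 under TNF, with a list median of 0.68, beside 0.02 over all genes. Under dex plus TNF it has 25 higher and 1 lower (median 0.68), under dex 11 higher and 2 lower (0.29) and under vehicle 9 higher and 3 lower (0.17), again in the authors' deposited table. The authors' deposited table calls 45.7% of all genes under TNF, 42.4% under dex plus TNF, 37.2% under dex and 40.3% under vehicle, so the counts under dex and vehicle are near those shares. Under TNF the largest were the chemokine CXCL10 (2.35), the GTPases GBP2 (1.66) and GBP1 (1.41) and the protease CASP1 (1.52), in the authors' deposited table. TNF over vehicle raised 34 of 34 with siIRF2BP2 (median 1.81, 43.0% of all genes called) and 30 of 34 with siNON (median 1.30, 22.6% called), and lowered none (authors' deposited table). The 1 RPM filter averages over columns with TNF, so some targets can pass through TNF alone. CXCL10, for example, was listed at 0 FPKM with siIRF2BP2 and vehicle, and at 3.115 FPKM with siIRF2BP2 and TNF. The TNF counts and medians are therefore partly set by the filter, which the share of all genes called also uses. Dex added to TNF lowered 29 and raised 2 of 34 with siIRF2BP2 (median -0.85, 28.4% called), and lowered 19 and raised 2 with siNON (median -0.63, 19.3% called), by the authors' deposited table. The adhesion molecule VCAM1 led both (-4.43 with siIRF2BP2 and -3.81 with siNON, authors' deposited table). Many listed genes, VCAM1 among them, are known to answer to NF-kB as well as to IRFs.

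In HEK293-GR cells 27 of the 39 targets were tested. The knockdown raised 5 and lowered 3 under dex, where limma called 39.7% of all tested genes, and raised 3 and lowered none under vehicle, where it called 15.5%, with list medians of 0.02 and 0.06. IFI35, an interferon-induced protein, was higher with siIRF2BP2 at both treatments (0.60 with limma adjusted p = 0.000335 under dex, 0.59 with limma adjusted p = 0.000878 under vehicle). The peptide transporter TAP1 fell under dex (-0.35, limma adjusted p = 0.000893), and IFIT3 and ISG15, interferon-stimulated genes, rose under vehicle (0.76 and 0.43, limma adjusted p = 0.036 and 0.0434). Dex raised 2 and lowered 1 with siIRF2BP2, beside 10.5% of all tested genes called, and raised 4 and lowered none with siNON, beside 20.7%.

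The authors' lists hold 1400 peaks with dex and 1108 with vehicle, on hg19, and only IRF3 had a peak centre within 100 kb of its start, in the vehicle list and 25.1 kb downstream of the start. Of 25689 genes in all, beside this 1 of 6 members, 13.6% had a peak of either list within 100 kb. With dex the nearest peak centres, negative where upstream of the start, were at -339 kb for IRF2, -534 kb for IRF5, -559 kb for IRF1, 822 kb for IRF9, -935 kb for IRF3 and -6398 kb for IRF7. There is 1 list for each treatment, so a peak present in only 1 of them has no replicate check.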

How the data were processed

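The submitters' processing notes name build hg19 and, with no role or order, FastQC, Trimmomatic 0.33, Bowtie 0.12.9, Bowtie2, TopHat2, HOMER (4.10.3 in part), bedtools and edgeR. Expression was deposited as FPKM, with depth and a length divided out by the authors. The length is the genomic span for 98.6% of A549 transcripts and mostly the exon length in the HEK293-GR table. The test behind the authors' deposited log2 fold changes, p-values and FDR is not given in the sources used here. Every peak carries the same score in the deposited lists, which were used for positions alone.

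FPKM times length gave whole reads, and from these the tags of each library. HEK293-GR genes counted as measured with 10 or more reads in 3 or more libraries. These were compared by limma 3.58.1 (trend, R 4.3.3) on log2 of FPKM plus 0.1, a scale that understates changes of low genes. The 12 libraries shared 1 model (residual degrees of freedom 8), p-values were adjusted by Benjamini-Hochberg with a threshold of 0.05, and the script was checked on simulated data. In A549 cells an FDR under 0.05 in the authors' deposited table made a call.

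Members, lists and motifs were chosen with earlier results of these data known. The text names the members, IRF2BP2, up to 4 called genes per list and comparison (smallest p in HEK293-GR, largest fold change in A549), and the 3 genes most alike for IRF1 and for members that span 0.5 or more on the log2 scale. Promoters are from RefSeq (GRCh38.p14). Alternatives changed the pseudocount, filter, scaling, replicate block, libraries, FDR threshold, transcript or peak window. The labels list 4 further HEK293-GR samples, not analysed here.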

Additional observations from a re-analysis of the deposited data

Results flagged for a closer look

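The knockdown of IRF2BP2 was called in opposite directions for IRF7 in A549 cells: the log2 fold change in the authors' deposited table was -0.94 under vehicle and 0.59 under TNF. The difference between the 2 treatments was not tested, since each group is 1 pooled column.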

How the results depend on the processing

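Among the member fold changes recomputed in HEK293-GR cells, 534 kept direction and side of the threshold, 26 lost a call, 10 gained one and 24 changed sign, none of them called. IRF7 stayed called for the knockdown under dex and for dex with siNON in 20 of 20 alternatives each. The number of members called for the knockdown under vehicle was 2 with a 50-read filter, median-of-ratios scaling or a robust spread, 0 in a fit of the compared groups alone, and 0 to 4 when 1 library was left out (0 without siNON vehicle replicate 2, 4 without siNON vehicle replicate 3). Under dex it was 2 with median-of-ratios scaling or only the groups compared. For dex with siNON it was 1 with no filter, median-of-ratios scaling, the replicate block or only the groups compared, and 1 to 3 without 1 library. Replicate numbers did not pair the samples (same-numbered correlations 0.26, -0.26 and -0.38 for the knockdown under vehicle), and the replicate block gave 1887 knockdown calls over all genes under vehicle, against 2414 here. That count was 1367 with no filter and 567 with only the groups compared. Leaving out 1 library moved it between 1170 and 4827 (1178, 1348 and 4827 without siNON vehicle replicate 1, 2 and 3, and 1170 without siIRF2BP2 vehicle replicate 2), and the count for dex with siNON, 3235, to 1978 without siNON dex replicate 3. The difference of dex responses had 22 calls with a pseudocount of 1 and 9 with no filter, against 2 here, and 0 to 6 without 1 library. Uncalled values changed sign: IRF1 for the knockdown under vehicle was -0.0021 with median-of-ratios scaling. Without 1 library the log2 ranges were -0.0596 to 0.1506 (IRF1) and -0.1052 to 0.0748 (IRF5) for the knockdown under vehicle, -0.0487 to 0.104 (IRF5) under dex, -0.0369 to 0.0253 (IRF3) and -0.0194 to 0.1154 (IRF1) for dex with siNON, -0.0486 to 0.0905 (IRF3) and -0.0524 to 0.0355 (IRF2) for dex with siIRF2BP2, and -0.0406 to 0.0985 (IRF3) and -0.0526 to 0.1274 (IRF5) for the difference. In A549 cells members called fell to 3 (FDR under 0.01) and 2 (at least 0.5 in log2) for the knockdown under vehicle, 2 (at least 0.5) under TNF, 1 and 1 for dex with siIRF2BP2, and 3 and 3 for TNF added to dex with siIRF2BP2. Within 10 kb, 0 members had a peak. The cause of these changes was not tested.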
